A study of Mus musculus with 8 samples.

Results

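The dual-specificity MAP kinase phosphatases were followed in lung RNA of mouse pups from a study of an inducible FGF18 transgene. The family was taken as 10 genes, Dusp1, Dusp2, Dusp4, Dusp5, Dusp6, Dusp7, Dusp8, Dusp10, Dusp14 and Dusp16, out of 18193 gene symbols on the array with a probe set of their own. A probe set, the group of oligonucleotides that reads a transcript, was used when it was annotated to a member symbol alone, which gave 16 probe sets, with 1 for each of 6 genes, 2 for Dusp10 and Dusp16, and 3 for Dusp7 and Dusp8. The study compared 4 control pups (D02, D40, D50 and D58) with 4 case pups (D04, D34, D48 and D52) of strain FVB/N, with 1 Affymetrix array of total lung RNA per pup. The genotype field was alike for all 8 pups and named SP-C-rtTA, in which the surfactant protein C promoter of distal lung epithelium drives a doxycycline-dependent activator, and (teto)7-FGF18, the cassette which that activator switches on. The design text adds that the pups formed pairs of simple and double transgenic animals from 4 litters and were picked for transgene induction. The sources used here do not give which transgene the controls carried, the age of the pups or the litter of each pup, although a deposited ratio column named Rep1 sets D04 over D02, which points to 1 pair. Nothing ties any pup to more than 1 array, so p-values measure the spread between pups.

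MAP kinases are switched on by phosphate on a threonine and a tyrosine of the same loop, and dual-specificity phosphatases remove both. FGF receptors signal through RAS, RAF and MEK to the kinase ERK, and ERK raises the transcription of several of its own phosphatases, so that the pathway holds itself in check. Dusp6 is the best known of these in FGF-responsive tissue and acts on ERK in the cytoplasm, whereas other members prefer the stress kinases JNK and p38.

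The windows below show the DNA around the start sites of Dusp6, which with Dusp4 lay above every control in the pups with high Fgf18, and of Dusp1, Dusp8 and Dusp16, the members with a probe set above the filter on low values that read higher in all females than in all males. They come from RefSeq (GRCm38.p6) and run from 250 bases before to 50 bases after the start, 5′ to 3′ on the strand of the gene. Capitals mark the letters TGACGT or their reverse complement, the core of a cAMP response element, and matches on opposite strands overlap where the site reads the same both ways. The Dusp6 window lies at chr10:99262981-99263280 on the plus strand, that of Dusp1 at chr17:26508423-26508722 that of Dusp8 at chr7:142095235-142095534 and that of Dusp16 at chr6:134792579-134792878, the last 3 on the minus strand.
Dusp6: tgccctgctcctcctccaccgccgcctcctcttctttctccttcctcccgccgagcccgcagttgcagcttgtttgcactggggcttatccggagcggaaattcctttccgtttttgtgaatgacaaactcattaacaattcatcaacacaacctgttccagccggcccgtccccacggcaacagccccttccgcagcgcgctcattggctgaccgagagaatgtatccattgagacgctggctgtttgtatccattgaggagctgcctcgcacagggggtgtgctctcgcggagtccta
Dusp1: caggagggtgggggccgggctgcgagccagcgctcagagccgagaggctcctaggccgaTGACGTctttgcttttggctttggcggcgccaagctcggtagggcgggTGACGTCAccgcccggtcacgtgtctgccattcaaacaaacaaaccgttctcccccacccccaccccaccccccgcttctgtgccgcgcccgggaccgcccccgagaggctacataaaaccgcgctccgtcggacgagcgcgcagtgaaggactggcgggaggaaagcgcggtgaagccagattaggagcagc
Dusp8: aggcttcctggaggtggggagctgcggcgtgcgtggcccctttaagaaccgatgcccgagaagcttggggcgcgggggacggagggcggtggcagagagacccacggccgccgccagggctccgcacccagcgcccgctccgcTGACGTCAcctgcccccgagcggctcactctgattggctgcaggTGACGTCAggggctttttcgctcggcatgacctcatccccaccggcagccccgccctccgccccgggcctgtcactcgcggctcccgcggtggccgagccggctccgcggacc
Dusp16: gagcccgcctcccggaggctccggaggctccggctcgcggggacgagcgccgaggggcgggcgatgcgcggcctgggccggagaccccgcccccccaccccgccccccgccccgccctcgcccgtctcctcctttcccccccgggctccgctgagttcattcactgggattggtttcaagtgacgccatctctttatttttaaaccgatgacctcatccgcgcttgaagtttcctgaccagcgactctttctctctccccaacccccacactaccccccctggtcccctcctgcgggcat

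A window was found for 9 of the 10 members, and Dusp4 had none in the table. The response element core was present in 3 member windows (Dusp1 with 3 matches, Dusp8 with 4 and Dusp5 with 1), against 7.51% of 32851 windows in the table. The CArG box, the binding site of serum response factor, was found in the Dusp5 window alone among members, at 82 to 73 and 72 to 63 bases before the start, against 1.63% of all windows. The letters CCGGAA, a longer form of the ETS site, were found in the Dusp14 window alone among members (14.9% of all windows). The shorter ETS letters GGAA were not searched. The AP-1 site TGANTCA (7.81%) and the TATA sequence TATAAA (13.6%) were found in no member window. All motifs were searched on both strands. The Dusp6 and Dusp16 windows held no match to any motif searched. The Dusp8, Dusp14 and Dusp16 windows lie inside the RefSeq spans of their minus-strand genes, which end at 142095907, 84069256 and 134807063. An outer start of these genes was thus not searched.

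Fgf18 was read first, since it checks the labels. Controls D02, D40, D50 and D58 read log2 7.05, 7.76, 7.11 and 7.07, and cases D04, D34, D48 and D52 read 10.82, 12.09, 9.82 and 7.66. The library labelled Case D52 lay below D40, the highest control, and above controls D02, D50 and D58. Its Fgf18 was thus within the control range through D40 alone. Differences of the members between the groups are given with and without it, except in the fit with sex, which kept all pups. The case minus control difference was 2.85 (two-sided exact permutation p = 0.0571, where 70 arrangements allow no less than 0.0286). Without it the difference was 3.66 (exact permutation p = 0.0286, the smallest that 35 arrangements allow). Leaving it out was a choice made after its Fgf18 level was seen. The groups without it do not overlap, so the smallest p follows from that choice. The pups were picked on this gene, so its level is a description.

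Defining markers of lung cells were present on every array. Surfactant protein C (Sftpc), a gene of alveolar type 2 cells, read 14.48 to 14.65 on all arrays, and the airway gene Scgb1a1 13.48 to 14.36, the type 1 cell gene Aqp5 10.34 to 11.33, the endothelial gene Pecam1 10.95 to 11.35 and the leukocyte gene Ptprc 9.28 to 9.80. D34 had the lowest Scgb1a1, Aqp5, Pecam1 and Ptprc of the 8 pups. Of the 6 type 2 cell markers, 3 were lower and 3 higher in cases. The lipid transporter Abca3 read 10.54, 10.65, 10.49 and 10.27 in D04, D34, D48 and D52 and 11.34 to 11.57 in controls. Median log2 intensity was 7.02 to 7.12, and precision is limited by the number of arrays. By Xist and Y-linked genes the female pups were D02, D04 and D34, and 5 pups were male.

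Across 27022 probe sets that passed a filter on low values (mean above the 40th percentile, log2 6.51), 13 of the 16 member probe sets could be tested, covering 9 of the 10 genes. The probe set of Dusp2, 1 of 2 for Dusp10 and 1 of 3 for Dusp8 lay below the filter, and their intervals come from a fit of all 45037 probe sets. No member passed the threshold in limma with Benjamini-Hochberg adjustment (adjusted p under 0.05), where 0% of all probe sets tested were called higher and 0.0074% lower. At an unadjusted p under 0.05, 1 of 13 member probe sets was higher (Dusp6) and 0 were lower, against 1.94% higher and 4.02% lower of all probe sets. The median difference over the 13 was -0.02 log2, against -0.01 over all probe sets tested, with 6 above 0 and 7 below.

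Without the library labelled Case D52, again no member passed after adjustment, where 0.037% of all probe sets were called higher and 0.0185% lower. At an unadjusted p under 0.05, 2 members were higher (Dusp6 and Dusp4) and 1 was lower (Dusp14), against 4.34% and 7.15% of all probe sets. The same genes were those in which pups D04, D34 and D48 all lay outside the control range, 2 above and 1 below, where 5.4% and 7.04% of all probe sets did so. With all 4 cases, 0 of the 13 separated the groups in either direction (1.39% of all probe sets with cases above, 2.34% below).

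**Figure D1:**
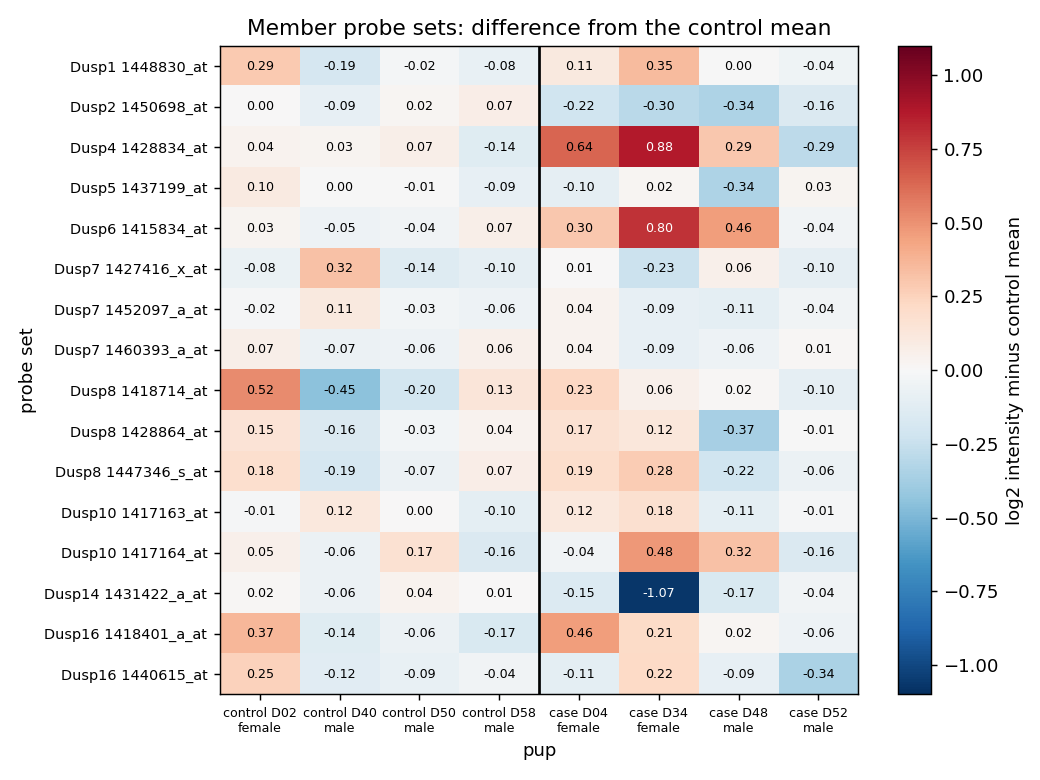
Difference of each member probe set from the control mean, in log2 units, by pup, with controls left of the black line and the sex read from Xist and Y-linked genes under each pup. Dusp4 and Dusp6 are above the control mean by 0.29 to 0.88 in cases D04, D34 and D48 and not in D52, and Dusp14 is 1.07 below it in D34.

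Dusp6, the cytoplasmic phosphatase of ERK, was higher than every control in the 3 pups with high Fgf18 and within the control range in the library labelled Case D52. Probe set 1415834_at read 10.84, 10.76, 10.77 and 10.87 in D02, D40, D50 and D58, and 11.10, 11.61, 11.27 and 10.77 in D04, D34, D48 and D52. The controls spanned 0.12 log2, and the highest of them stood 0.23 below the lowest of the 3 pups. Relative to the control mean (10.81 ± 0.06, SD, n = 4) the intensity was 1.74-fold in D34, 1.38-fold in D48, 1.23-fold in D04 and 0.972-fold in the library labelled Case D52. The case minus control difference was 0.38 log2 (SE 0.15, 95% interval 0.05 to 0.71, limma adjusted p = 0.786), and it missed the threshold. After removal of the library labelled Case D52 it was 0.52 (SE 0.11, interval 0.26 to 0.77, limma adjusted p = 0.163).

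Dusp4, a nuclear phosphatase of ERK and JNK, showed the same pups high. Probe set 1428834_at read 7.87, 7.86, 7.90 and 7.69 in the controls in the same order, and 8.47, 8.71, 8.12 and 7.55 in the cases. The library labelled Case D52 was the lowest of all 8 pups here, 0.29 below the control mean, and the other cases stood 0.64, 0.88 and 0.29 above it. The difference was 0.38 log2 over all 8 pups (SE 0.20, 95% interval -0.07 to 0.84, limma adjusted p = 0.786). After removal of the library labelled Case D52 it was 0.60 (SE 0.13, interval 0.31 to 0.89, limma adjusted p = 0.152), a 1.52-fold level. Among the 3 pups, Dusp4 followed the order of Fgf18 (D34, D04, D48), while for Dusp6 the order was D34, D48, D04.

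**Figure D2:**
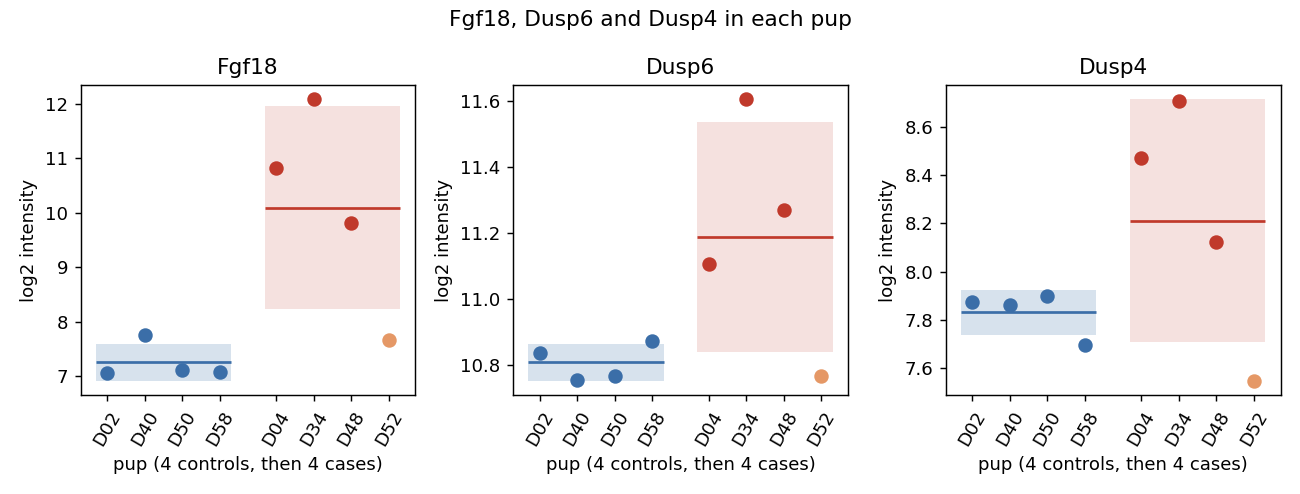
Log2 intensity of Fgf18, Dusp6 and Dusp4 in each pup, with controls in blue, cases in red and the library labelled Case D52 in orange. Lines are group means and bands 1 SD (n = 4 each). In all 3 panels D04, D34 and D48 lie above every control, and D52 lies within the control range for Fgf18 and Dusp6 and below it for Dusp4.

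Among pups of the same sex, the pattern of Dusp6 and Dusp4 was similar. Against the female control D02, Dusp6 was higher by 0.27 in D04 and 0.77 in D34. Against the 3 male controls (10.80 ± 0.07, SD, n = 3), Dusp6 was 0.47 higher in D48, while the library labelled Case D52 differed by -0.03. For Dusp4 the values were 0.60 and 0.84 in the females, and 0.31 and -0.27 in the males. The female comparison has 1 control, so it has no replicate error. With sex as a covariate over all 8 pups the difference was 0.33 for Dusp6 and 0.27 for Dusp4 (limma adjusted p = 0.953 for both). The authors' deposited table holds a column of log2 ratios of D04 over D02, which reads 0.27 for Dusp6 and 0.60 for Dusp4.

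The other phosphatases that prefer ERK stayed near the controls. Dusp7, a close relative of Dusp6 in the cytoplasm, had 3 probe sets with differences of -0.07, -0.05 and -0.02 log2, and their 95% intervals ran from -0.31 to 0.18, from -0.20 to 0.10 and from -0.17 to 0.12. The difference between the Dusp6 and Dusp7 responses was not tested. Probe set 1427416_x_at, of a kind that may share oligonucleotides with other transcripts, gave its highest value in control D40, at 8.28, with 7.73 to 8.02 elsewhere. In the pair of probe sets without that flag (1452097_a_at and 1460393_a_at) all pups lay between 8.38 and 8.59 and between 7.86 and 8.01. Dusp5, a nuclear phosphatase of ERK, read 8.33, 8.23, 8.23 and 8.14 in the controls and 8.14, 8.25, 7.90 and 8.26 in D04, D34, D48 and D52. D48 lay below all controls by 0.245 and D04 by 0.0053, and the difference was -0.10 (95% interval -0.30 to 0.11, limma adjusted p = 0.832). When the library labelled Case D52 was removed the difference was -0.14 for Dusp5 and -0.06, -0.05 and -0.04 for the Dusp7 probe sets.

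Dusp1 and Dusp2 are nuclear phosphatases of early response genes, with Dusp1 acting on p38, JNK and ERK and Dusp2 best known from blood cells. Dusp1 read 11.31, 10.83, 10.99 and 10.94 in D02, D40, D50 and D58 and 11.12, 11.37, 11.02 and 10.97 in D04, D34, D48 and D52. The groups overlapped throughout, with a difference of 0.10 (SE 0.12, 95% interval -0.16 to 0.36, limma adjusted p = 0.860) and of 0.15 without the library labelled Case D52. Dusp2 was the 1 member of 10 in which all 4 cases lay below all 4 controls. It read 6.54, 6.44, 6.55 and 6.61 in the controls and 6.32, 6.23, 6.19 and 6.37 in D04, D34, D48 and D52. The gap between the groups was small beside their spread, from 6.37 in the highest case to 6.44 in the lowest control, and 3.13% of all 45037 probe sets had all cases below all controls.

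The Dusp2 difference was -0.25 log2 (SE 0.08, 95% interval -0.42 to -0.09, limma adjusted p = 0.635 in the fit of all probe sets), a 0.838-fold level, and it was -0.29 without the library labelled Case D52 (limma adjusted p = 0.226). This probe set lies below the filter on low values. Of 8 lymphocyte markers 6 had a probe set and 2 of those passed the filter, and 5 of the 6 were lower in cases. Their summed intensity was 449 to 577 in controls and 462 to 485 in cases. Their median deviation from the control mean was -0.11, -0.31, -0.21 and 0.00 in the cases in the same order, where controls spanned -0.16 to 0.22. The part of these cells in the Dusp2 values was not tested. In whole lung RNA, fewer cells of a type and less RNA per cell cannot be told apart.

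**Figure D3:**
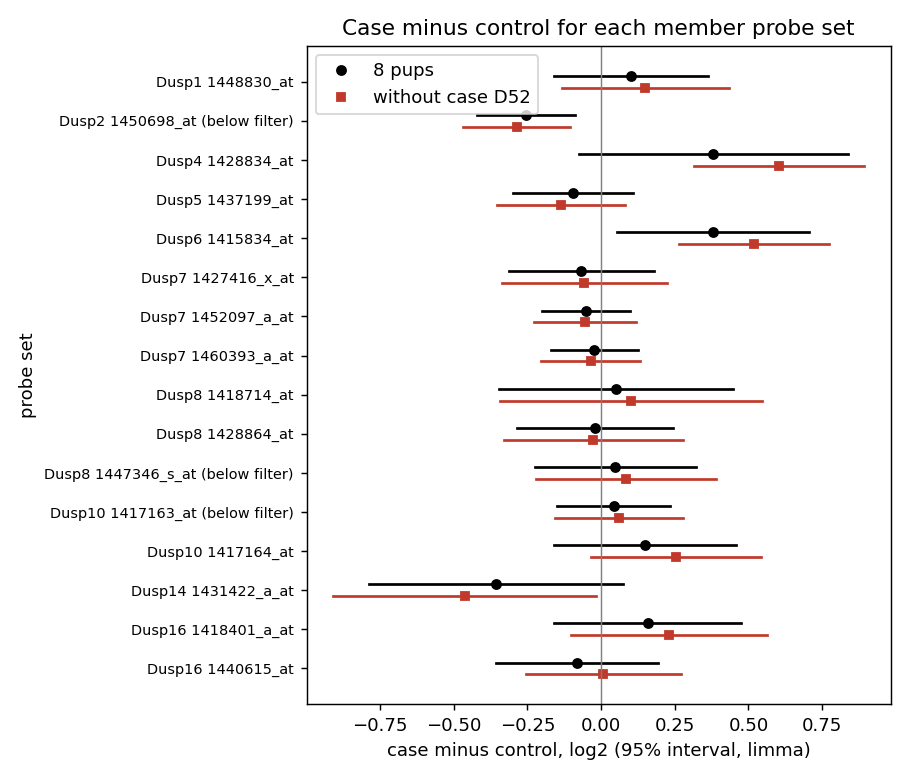
Case minus control difference of each member probe set in log2 units with its 95% interval from limma, over all 8 pups (black) and without the library labelled Case D52 (red). Over all 8 pups the intervals of Dusp6 and Dusp2 lie on one side of 0 before adjustment, and without that library so do those of Dusp4, Dusp6, Dusp2 and Dusp14.

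No probe set of the phosphatases that prefer JNK and p38 passed the threshold, and all their 95% intervals over the 8 pups included 0. The intervals reached up to 0.47, so a difference as large as that of Dusp6 (0.38) was not excluded. Dusp10 had a brighter probe set, 1417164_at, at 7.60, 7.48, 7.71 and 7.39 in the controls and 7.50, 8.02, 7.87 and 7.38 in D04, D34, D48 and D52. D34 and D48 lay above the controls and D04 within them, and the difference was 0.15 (95% interval -0.16 to 0.46, limma adjusted p = 0.828) and 0.25 without the library labelled Case D52 (limma adjusted p = 0.487). The dim Dusp10 probe set ranged from 5.76 to 6.05 with overlapping groups, and differed by 0.04. Dusp16, a JNK phosphatase, differed by 0.16 at 1418401_a_at (95% interval -0.16 to 0.47, limma adjusted p = 0.827) and by -0.08 at 1440615_at (95% interval -0.36 to 0.19). Its probe sets thus disagreed in sign, and neither passed the test. Dusp8, a phosphatase of JNK and p38 known mainly from brain and heart, differed by 0.05, -0.02 and 0.05 at its 3 probe sets. Removing the library labelled Case D52 gave 0.23 and 0.01 for Dusp16 and 0.10, -0.03 and 0.08 for Dusp8. Dusp8 probe set 1418714_at had the widest spread of controls among members (SD 0.42, from 6.36 to 7.33).

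Dusp14, a small phosphatase that lacks the kinase-binding domain of the others and is known from T cell signalling, was low in 1 pup. It read 9.02, 8.94, 9.04 and 9.01 in the controls, and 8.85, 7.93, 8.84 and 8.97 in D04, D34, D48 and the library labelled Case D52. D34 stood at 0.475-fold of the control mean (9.002 ± 0.043, SD, n = 4), while D04 and D48 were at 0.902-fold and 0.891-fold, just under the control range. The difference was -0.36 log2 (SE 0.19, 95% interval -0.79 to 0.08, limma adjusted p = 0.786). Without D34 it was -0.12, so most of its size came from that pup. After removal of the library labelled Case D52 it was -0.46 (95% interval -0.91 to -0.02, limma adjusted p = 0.421).

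Markers of several cell types were low in the same pup. All 6 club and ciliated airway markers were lower in cases, with a median deviation of -0.95 in D34, of -0.33 in both D04 and D48, and of -0.11 in the library labelled Case D52 (controls -0.07 to 0.03). Their summed intensity was 39577 to 41649 in controls and 19741 to 38596 in cases. Of 8 heart and skeletal muscle markers 7 were lower in cases, with medians of -0.69, -1.60, -0.53 and 0.18 in the cases in that order (controls -0.18 to 0.33), with sums of 15791 to 21570 in controls and 4497 to 20489 in cases. All 5 type 1 cell markers were lower in cases, with a median of -0.54 in D34 and -0.10 to 0.02 in the other cases, with sums of 22163 to 22875 in controls and 15806 to 22197 in cases. Of 6 smooth muscle and fibroblast markers 5 were lower in cases, with medians of -0.46, -0.66, -0.15 and -0.11 in D04, D34, D48 and D52 (controls -0.03 to 0.02) and sums of 24575 to 27083 in controls and 18344 to 25060 in cases. Dcn, a fibroblast proteoglycan, read 9.78, 8.75, 9.61 and 11.69 in those cases and 10.93 to 11.24 in controls. Pdgfra, a growth factor receptor of lung fibroblasts, went the other way, at 10.75, 12.58, 11.15 and 10.32 in the cases and 10.58 to 10.73 in controls. Its order over the cases (D34, D48, D04, D52) was that of Dusp6, and D04, D34 and D48 lay above every control as for Dusp6 and Dusp4. All 6 endothelial, 6 of 7 myeloid and all 4 red blood cell markers were lower in cases. In D04, D34, D48 and D52 the endothelial medians were 0.01, -0.31, -0.05 and -0.04 (controls -0.09 to 0.10). The myeloid medians were -0.15, -0.28, -0.23 and 0.05 (controls -0.10 to 0.13). Those of red blood cells were -0.31, -0.43, -0.69 and -0.25 (controls -0.27 to 0.47), lowest in D48. The part of these cells in the Dusp14, Dusp6 and Dusp4 values was not tested.

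Several members divided the pups by sex rather than by group, a pattern noticed after the values were seen. The 3 females (D02, D04 and D34) had the lowest pup numbers, and D02 and D04 are the pair that Rep1 points to. The litter of each pup is not given, so sex cannot be told apart from pup number or litter. The levels of Dusp1 in the 3 females (11.12 to 11.37) lay above those of the 5 males (10.83 to 11.02). At Dusp16 1418401_a_at the females read 9.51 to 9.76 and the males 9.13 to 9.32. At Dusp8 1428864_at they read 9.19 to 9.23 and 8.70 to 9.10, and at the dim Dusp8 1447346_s_at 6.48 to 6.58 and 6.08 to 6.37. Of the 13 member probe sets above the filter, 3 had all females above all males and 0 the reverse, against 2.74% and 3.27% of all probe sets.

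In the fit with group and sex, the female minus male difference was 0.31 for Dusp1 (95% interval 0.10 to 0.51, limma adjusted p = 0.669), 0.41 for Dusp16 1418401_a_at (interval 0.21 to 0.61, limma adjusted p = 0.297) and 0.28 for Dusp8 1428864_at (interval 0.05 to 0.51, limma adjusted p = 0.714). None of the 13 passed after adjustment, while 33 of 27022 probe sets did. The largest such difference was that of Dusp4, at 0.45 (interval 0.07 to 0.84, limma adjusted p = 0.742), where the sexes overlapped (7.87 to 8.71 in females, 7.55 to 8.12 in males) and the case minus control difference in the same fit was 0.27. Among controls, Dusp4 read 7.87 in the female D02 and 7.82 ± 0.11 (SD, n = 3) in the males. The female cases D04 and D34 also had the highest Fgf18, so sex and Fgf18 level partly coincide among the cases. Within each sex Fgf18 still varied. Among male cases D48 read 9.82 for Fgf18 and 8.12 for Dusp4, and D52 7.66 and 7.55. Among female cases D34 read 12.09 and 8.71, and D04 10.82 and 8.47. The shares of sex and Fgf18 level in the Dusp4 values were not tested. With overlapping sexes Dusp8 1418714_at gave 0.40 (interval 0.07 to 0.74, limma adjusted p = 0.736) and the second Dusp16 probe set 0.30. Females made up 1 of 4 controls and 2 of 4 cases, and with sex in the fit the case minus control difference of Dusp1 went from 0.10 to 0.03 and that of Dusp16 1418401_a_at from 0.16 to 0.05.

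**Figure D4:**
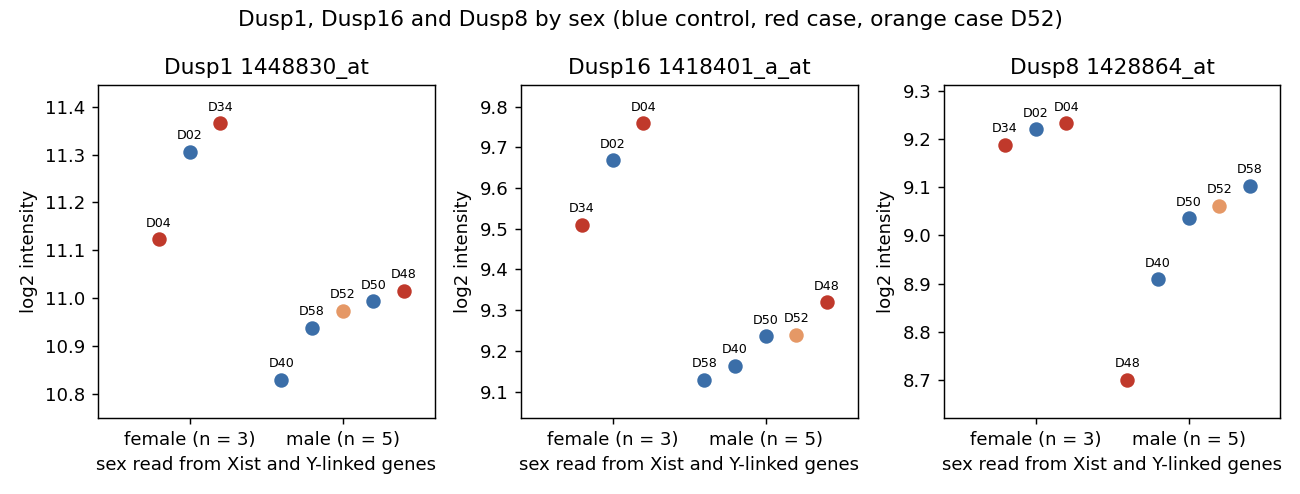
Log2 intensity of Dusp1, Dusp16 and Dusp8 (1 probe set each) in the 3 pups that read as female and the 5 that read as male, with controls in blue, cases in red and the library labelled Case D52 in orange. In each panel all females lie above all males, and the 3 females also have the lowest pup numbers.

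Genes with the pattern most like a member were found by Pearson r over the 8 pups among probe sets above the filter. These pups share the grouping by Fgf18 and by sex, so r is a description only. Closest to Dusp6 were Rnf2 (r = 0.993), Bcas3, Mctp2, Sipa1l1 and Spred1 (r = 0.986), where Spred1 encodes an inhibitor of RAS and RAF signalling. All 5 were higher in D04, D34 and D48 than in any control, which follows from picking them for their likeness to Dusp6. Without the library labelled Case D52 their log2 differences ran from 0.34 for Rnf2 to 0.76 for Mctp2. Closest to Dusp4 were Setd5 (r = 0.979), Prkca, Ccl27a, Arhgef17 and Cdk18 (r = 0.973), with differences from 0.20 for Setd5 to 0.70 for Cdk18 without that library. Closest to Dusp1 were Vamp4 (r = 0.974), Eif2s3x, Fam120b, Kat5 and Wac (r = 0.963). Eif2s3x is an X-linked gene known in mice to be expressed from both X chromosomes of females, and it read 9.40 to 9.68 in the females and 8.63 to 8.96 in the males.

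The rest of the pathway was then set beside the members, as counts of probe sets in the same fit. None of the 6 lists held a probe set that passed after adjustment over all 8 pups (limma). Among ERK targets and feedback regulators, 28 of 34 probe sets were above 0 and 6 below, with a median of 0.17 log2, and at an unadjusted p under 0.05 there were 6 higher and 0 lower. These probe sets read 14 genes, and probe sets of the same gene are not independent. Of all probe sets tested, 46.1% were above 0, 1.94% higher and 4.02% lower. Without the library labelled Case D52 the median was 0.27, with 28 above 0 and 17 higher and 0 lower at that p, where 46% of all probe sets were above 0, 4.34% higher and 7.15% lower. Myc, a growth-promoting transcription factor, differed by 0.70 and read 7.44 to 7.81 in controls and 8.16, 9.10, 8.30 and 7.79 in D04, D34, D48 and D52. Spred1 at its brightest probe set differed by 0.29. That list follows the same pathway as Dusp6, and part of it was known from earlier results on these arrays to lie higher, so it is no independent support.

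The kinases that the phosphatases act on, and those above them, showed medians near 0. The RAS, RAF, MEK and ERK list had a median of 0.0018 over 41 probe sets, with 1 higher and 0 lower at an unadjusted p under 0.05. At that p, 1.94% of all probe sets tested were higher and 4.02% lower. That list contains Map2k1, the ERK kinase MEK1, at 10.28 to 10.43 in controls and 10.70, 10.66, 10.69 and 10.47 in D04, D34, D48 and D52 (difference 0.26, limma adjusted p = 0.786). All 4 cases lay above all controls, as at 1.39% of all probe sets tested, with the library labelled Case D52 nearest to the controls. The adapter gene Shc1 differed by 0.17. The p38 and JNK list had a median of -0.01 over 38 probe sets, with 1 higher and 1 lower, and differences of -0.17 for Mapkapk3 and 0.09 for Mapk9.

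Remaining dual-specificity phosphatases had a median of -0.02 over 24 probe sets, with 1 higher and 3 lower at an unadjusted p under 0.05. For this and the lists below, the shares of all probe sets tested were 1.94% higher and 4.02% lower. The groups did not overlap at Dusp19, which read 9.63 to 9.76 in controls and 9.28 to 9.53 in cases (difference -0.25, limma adjusted p = 0.786), and Dusp23 read 7.09 to 7.37 and 6.64 to 7.01 (difference -0.30, same adjusted p). All cases lay below all controls at 2.34% of all probe sets tested. Immediate early genes, which rise with Dusp1 in many tissues on acute stimulation, had a median of -0.02 over 23 probe sets with 0 higher and 0 lower, and Jun differed by -0.15 and Junb by -0.15. Glucocorticoid response genes had a median of 0.13 over 28 probe sets with 3 higher and 0 lower. Hsd11b1, which regenerates active glucocorticoid, differed by 1.0 (limma adjusted p = 0.786) and by 1.28 without the library labelled Case D52 (limma adjusted p = 0.0449), where it was the 1 probe set of the 6 lists to pass. Lcn2 differed by 0.35, with its highest level of 11.28 in that library. Medians without that library were 0.21 for this list, -0.03 for the remaining phosphatases, -0.04 for immediate early genes, -0.03 for the p38 and JNK list and -0.0021 for the RAS to ERK list.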

How the data were processed

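The authors deposited linear intensities, 1 value per probe set and pup, from 1 Affymetrix array each. Per the submitters' processing notes the affy package of R was used, while the sources used here do not state how background was corrected or arrays were normalized. The second deposited table held the same intensities (largest difference 0) and a column of log2 ratios, named Rep1, which, per the file headers and values, equalled D04 over D02 for 45101 of 45101 probe sets within 1e-06.

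Pups were grouped by title. Values were converted to log2 without rescaling. Array control probe sets (64) were left out. Of the other 45037, the platform annotation gave 34945 a gene symbol of their own, 932 several and 9160 none, and names and places of all 10 members were found in the RefSeq table for GRCm38.p6. The fit kept the 27022 probe sets whose mean exceeded the 40th percentile. The groups were fitted in limma 3.58.1 (lmFit, eBayes; R 4.3.3), p-values were adjusted by Benjamini-Hochberg over every probe set fitted, and the threshold was 0.05. Titles and labels tie no pups to litters, and Rep1 points to 1 pair alone, so there is no litter block. Tables and plots were made with Python 3.11.15 and matplotlib 3.10.9. The fit was tested on simulated data.

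Members, lists and tests were chosen with earlier results of these data known. The named genes were Fgf18, all member probe sets, in each of the 6 lists up to 3 genes past the threshold or else the 2 with the smallest p (brightest probe set), for Dusp6, Dusp4 and Dusp1 the 5 genes with the highest r, skipping predicted transcripts, and 5 genes for the tissue check. Alternatives changed the filter, probe sets per gene, normalization, moderation, array weights, sex as a covariate, and the pups left out. Sex was read by setting Xist against Eif2s3y.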

Additional observations from a re-analysis of the deposited data

Results flagged for a closer look

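Of 34 groups of 4 pups, 3 had a pup far from the others by Dixon's ratio of gap to range at its 95% critical value, and chance gives about 1 in 20. Fgf18 in control D40 (7.76, ratio 0.921) was the highest control. Dusp7 at 1427416_x_at in control D40 read 8.28 (ratio 0.864). Dusp14 in case D34 read 7.93 (ratio 0.873).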

How the results depend on the processing

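No paired analysis was possible because labels and titles tie no pups to litters, the groups share no replicate number, and the deposited column named Rep1 (D04 over D02) points to 1 pair alone. Of 240 recomputed differences of member probe sets, 220 kept their direction and side of the threshold, 20 changed sign, and 0 passed the threshold (limma). Dusp6 ran from 0.24 to 0.52, Dusp4 from 0.22 to 0.60, Dusp14 from -0.46 to -0.12 and Dusp2 from -0.29 to -0.17. Over all probe sets, 2 passed, against 1 with 1 probe set per gene (fewer were tested), 5 with array weights and 4 with sex as a covariate. Leaving out 1 pup gave 0 to 15, with 15 without case D52 and 0 without D02, without D40, without D58, without D04 or without D48. The cause was not tested. The median over member probe sets was -0.02, and 0.10 with 1 probe set per gene (fewer members were tested), and ran from -0.044 to 0.063 without a pup. Fgf18 was 2.18 to 3.66 without a pup, and 3.66 (exact permutation p = 0.0286) without case D52. That pup was left out after its Fgf18 level was seen, so this p is no support. Signs changed at small differences. With array weights the Dusp7 probe sets became 0.058, 0.024 and 0.0048, Dusp8 1428864_at 0.036 and Dusp10 1417164_at -0.032. With arrays centred on their median Dusp7 1460393_a_at became 0.027 and Dusp8 1428864_at 0.029, where the median of all probe sets moved from -0.01 to 0.04. With sex as a covariate Dusp8 1418714_at became -0.049 and 1447346_s_at -0.032. Leaving out 1 pup gave -0.11 to 0.039 at Dusp7 1427416_x_at, -0.098 to 0.23 at Dusp8 1418714_at, -0.083 to 0.094 at Dusp8 1428864_at, -0.030 to 0.14 at Dusp8 1447346_s_at, -0.0027 to 0.093 at Dusp10 1417163_at, and -0.18 to 0.0078 at Dusp16 1440615_at. Signal near the filter limits Dusp2, Dusp8 and Dusp10.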
